A study of Mus musculus with 16 samples.

Results

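The response of TCF1+CD8+ T cells to restimulation in the presence of prostaglandin E2 (PGE2) was read from 8 of the 16 RNA-seq samples of the study, and it was described over all 14507 genes that passed the filter on low counts. The 4 stimulated PGE2 samples received aCD3/CD28 beads, which engage the T cell receptor and the costimulatory receptor CD28, at 1 bead/cell together with IL-2 at 85 U/ml. The 4 unstimulated PGE2 samples received the same IL-2 without beads. All 8 had first been kept with PGE2 at 100 ng/mL for 1 hour, and the stimulation lasted 4 hours. The other 8 samples, 4 stimulated untreated and 4 unstimulated untreated, went through the same steps without PGE2 and were used only to test where the 2 responses differed. All cells were C57BL/6J CD8+ T cells, isolated naive from spleen and turned in vitro, over 4 days of repeated activation, into antigen-experienced cells carrying TCF1, the transcription factor encoded by *Tcf7*. The controls were therefore not resting naive cells, since they were previously activated and carried both IL-2 and PGE2. Whether equally numbered samples came from the same mouse or culture is not stated, so the p-values measure the spread between these samples, which may be technical.

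Engagement of the T cell receptor and CD28 opens 3 main routes to the nucleus, calcium and calcineurin to NFAT, MAP kinases to AP-1, and protein kinase C to NF-κB, and together they switch on cytokine genes such as *Il2*. PGE2 binds the receptors EP2 (encoded by *Ptger2*) and EP4 (*Ptger4*) on T cells, which raise cyclic AMP (cAMP), and cAMP acts through protein kinase A on factors that include CREB. Protein kinase A is known to dampen signalling close to the T cell receptor, and the question here is which transcripts still responded to the beads when PGE2 was present.

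Sequencing depth was 23236175 to 36098297 assigned reads over the 8 samples, and mitochondrial transcripts took 1.43% to 1.70% of them. Defining transcripts of CD8+ T cells (*Cd3d*, *Cd3e*, *Cd3g*, *Cd8a*, *Cd8b1*, *Tcf7* and *Lck*) were abundant in every sample and summed to 2944 to 4499 CPM (read counts scaled to library size). The B cell list went from 10.1 to 17.3 CPM without beads to 4.60 to 9.90 CPM with them, without overlap. The CD4 T cell list summed to 40.6 to 56.6 CPM, mostly from *Zbtb7b* and *Ccr4*, while *Cd4* itself averaged 0.629 CPM without and 0.311 CPM with beads. The myeloid list summed to 53.6 to 66.8 CPM, nearly all of it from *Cst3*, and the erythroid list to at most 0.460 CPM. A natural killer cell list went from 6.22 to 11.6 CPM without beads to 38.02 to 129 CPM with them, and *Eomes*, which activated CD8+ T cells also express, made up most of it while *Ncr1* was at 0 in all 8 samples. The replicates were not equally far apart. On the first principal component, which held 87.1% of the variance, stimulated replicates 1 and 2 lay at 60.8 and 55.9, and stimulated replicates 3 and 4 at 37.3 and 28.8. Unstimulated replicate 4 lay at -37.8, whereas the other unstimulated replicates lay between -49.5 and -47.6. The same order recurs in many of the induced genes below, and its source was not tested.

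Restimulation under PGE2 changed a large part of the transcriptome. With edgeR's quasi-likelihood test and Benjamini-Hochberg adjustment, a differentially expressed gene (DEG) was one with an adjusted p below 0.05 and at least a 2-fold change. By this rule 3210 of 14507 genes, or 22.1%, were DEGs, with 1841 higher (12.7%) and 1369 lower (9.44%) after stimulation, and 9309 (64.2%) had an adjusted p below 0.05 whatever the size of the change. The rises were the larger changes, since 579 genes rose and 87 fell by at least 4-fold, and 47 rose and 0 fell by at least 16-fold. The DEGs that rose took 5.42% to 6.33% of the reads in the unstimulated samples and 19.1%, 18.4%, 15.2% and 13.7% in stimulated replicates 1 to 4. The DEGs that fell took 6.71% to 7.90% of the reads before and 2.27% to 3.23% after. In 60.2% of all genes tested the stimulated and unstimulated groups did not overlap, so a lack of overlap alone is common in these data. Leaving out 1 library at a time gave between 2950 DEGs (without stimulated replicate 1) and 3631 (without stimulated replicate 4), and 2598 of the 3210 were called in all 8 of these fits. Under upper-quartile scaling the median of all genes moved from 0.0022 to -0.13 on the log2 scale and the split became 1560 higher and 1758 lower, and limma on log2(FPKM + 1) gave 1087 higher and 496 lower. In bulk RNA a change in the share of responding cells and a change in RNA per cell cannot be told apart.

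The response was followed through 22 lists of genes with 490 members, of which 465 passed the filter. Among them 178 rose and 42 fell as DEGs. Over all genes 12.7% rose and 9.44% fell, and these are the shares to set beside each list below. Since the lists were chosen with earlier results of these data known, their shares describe them and are no test. The plot of list members shows where they lay against all genes, whose 10th and 90th percentiles were -0.99 and 1.203 on the log2 scale.

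**Figure D1:**
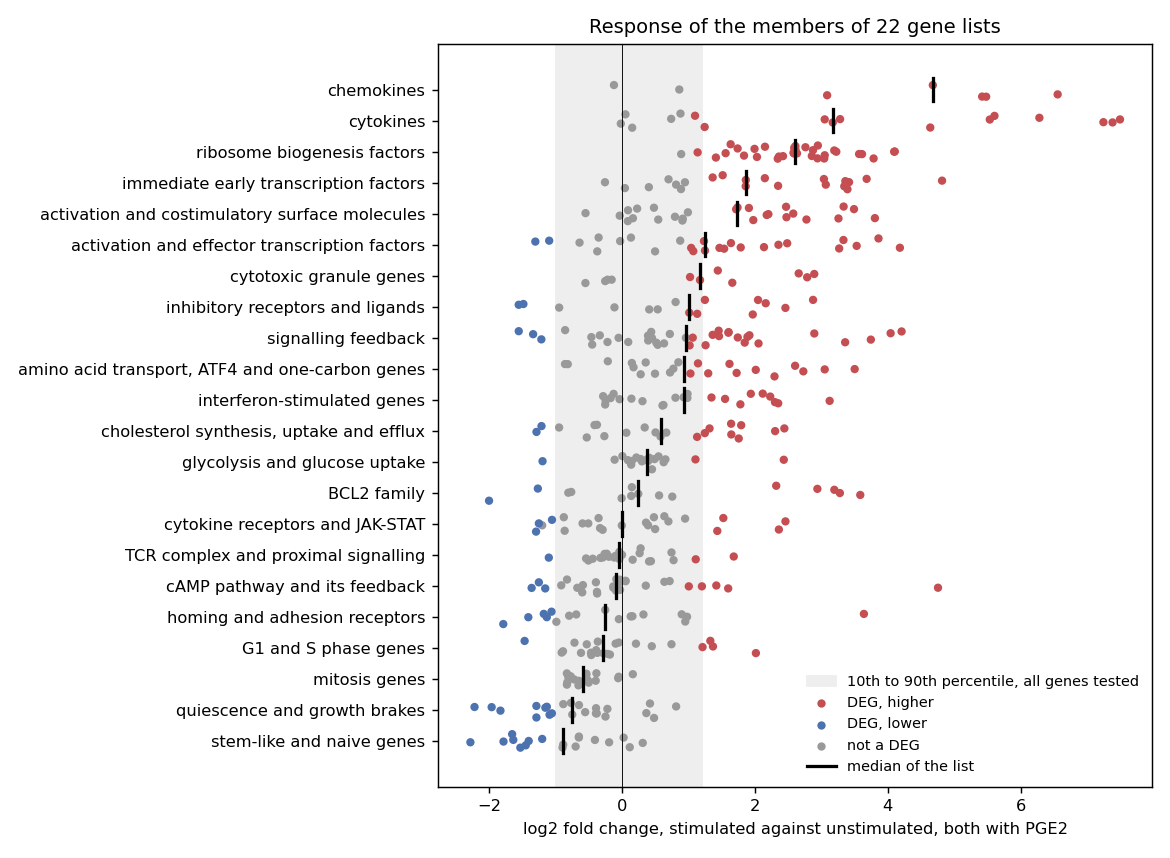
Log2 fold change, stimulated against unstimulated with PGE2 in both, of each tested member of 22 gene lists, ordered by list median (black bars). Red and blue points are DEGs, grey points are not, and the grey band spans the 10th to 90th percentile of all 14507 genes tested. Chemokines, cytokines and ribosome biogenesis factors have the highest medians (4.68, 3.17 and 2.61), and the stem-like and naive genes have the lowest (-0.89).

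Cytokines and chemokines were the lists with the highest medians. Of 17 tested members of the cytokine list 12 rose and 0 fell, with a median log2 fold change of 3.17, and of 7 tested chemokines 5 rose and 0 fell, with a median of 4.68, beside 12.7% higher and a median of 0.0022 over all genes. *Ifng*, which encodes the effector cytokine interferon-γ, stood at 0.949, 1.10, 2.29 and 5.50 CPM in unstimulated replicates 1 to 4 and at 773, 668, 248 and 109 CPM in stimulated replicates 1 to 4. The groups were far apart, yet the stimulated values themselves spanned a several-fold range, highest in replicates 1 and 2. The log2 fold change of *Ifng* was 7.49 ± 0.78 (SE, adjusted p = 1.33e-05). *Il2*, the T cell growth factor, was close to 0 without beads, at 0.0351, 0.0282, 0.110 and 0.458 CPM, and reached 46.6, 31.4, 16.7 and 9.18 CPM with them. Its log2 fold change was 7.24 ± 0.71 (adjusted p = 8.62e-06), again with the highest stimulated values in replicates 1 and 2 and the highest unstimulated value in replicate 4. *Tnf*, a proinflammatory cytokine already transcribed before stimulation, went from 7.66, 9.74, 10.1 and 13.6 CPM to 138, 126, 76.5 and 55.9 CPM, a log2 fold change of 3.28 ± 0.30. *Csf2*, encoding GM-CSF, rose from 0.0351, 0.0563, 0.248 and 1.12 CPM to 14.1, 12.7, 7.67 and 4.14 CPM, and *Il3*, encoding a haematopoietic growth factor, from 0, 0, 0 and 0.229 CPM to 18.8, 16.03, 6.33 and 3.42 CPM. *Il3*, *Ccl1*, *Il13* and *Il24* had unstimulated counts at or near 0, and in *Csf2* unstimulated replicate 4 stood above the other controls. The fitted log2 fold changes, 4.64 for *Csf2* and 7.38 for *Il3*, were therefore imprecise. Over the main fit and 14 alternatives they ranged from 3.08 to 6.32 and from 3.78 to 11.4. That of *Il2* ranged from 4.10 to 8.69. *Lif*, encoding an IL-6 family cytokine, reached 613, 656, 339.9 and 215 CPM from 4.78, 6.39, 8.15 and 20.1 CPM. Rises at low levels were seen for *Il13*, a type 2 cytokine, from 0.0597 ± 0.0522 to 3.25 ± 1.35 CPM (mean ± SD, n = 4 here and below), and for *Il24*, an IL-10 family cytokine, from 0.0645 ± 0.0770 to 5.25 ± 3.32 CPM. Members with no call included *Il4*, *Ltb*, *Fasl*, *Csf1* and *Tnfsf10*, whose log2 fold changes ran from -0.016 to 0.88. *Il5*, *Il17a*, *Il21* and *Il22* did not pass the filter, with at most 4 reads in any of the 8 samples.

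Among chemokines, which recruit other leukocytes, *Ccl4* had the largest change, from 1.97, 1.802, 2.18 and 5.80 CPM to 533, 346, 143 and 85.4 CPM, a log2 fold change of 6.55 ± 0.67 (adjusted p = 1.15e-05). Its neighbour *Ccl3* rose from 0.422, 0.591, 0.744 and 3.59 CPM to 117, 78.6, 31.6 and 18.9 CPM. *Xcl1*, whose product attracts cross-presenting dendritic cells, rose from 2.95, 3.66, 4.38 and 8.86 CPM to 361, 275, 110.0 and 103 CPM, and *Ccl1*, a ligand of CCR8, from 0, 0.113, 0.138 and 0.153 CPM to 4.34, 4.27, 1.43 and 1.11 CPM. In all 4 the unstimulated replicate 4 was the highest of its group and no stimulated value came near it. *Ccl5*, a chemokine of memory cells, had a log2 fold change of -0.12 (adjusted p = 0.358).

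**Figure D2:**
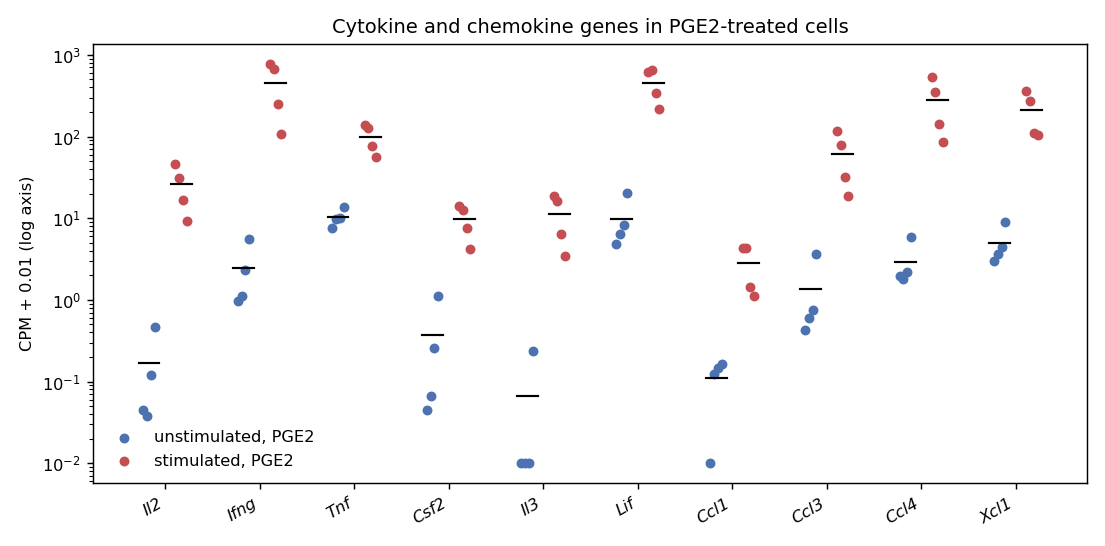
CPM + 0.01 on a log axis for 10 cytokine and chemokine genes in the 4 unstimulated and the 4 stimulated PGE2 samples, replicates 1 to 4 from left to right, with black bars at the group means. The groups do not overlap for any of the 10, *Ifng* goes from a mean of 2.46 to 449.6 CPM, and stimulated replicates 1 and 2 lie above replicates 3 and 4.

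Immediate early transcription factors, which need no new protein for their induction, were still raised at 4 hours. Of 21 tested members 14 rose and 0 fell, with a median log2 fold change of 1.86. *Nr4a1*, which encodes NUR77 and follows the strength of T cell receptor signals, went from 70.8, 55.6, 68.2 and 103 CPM to 1319.5, 1011, 786 and 651 CPM (log2 fold change 3.68 ± 0.26, adjusted p = 1.65e-06). *Nr4a3*, encoding the related NOR1, went from 83.4, 78.7, 91.0 and 134 CPM to 1031, 912, 659 and 601 CPM, a log2 fold change of 3.07. Of the zinc finger factors of the EGR family, *Egr1* rose from 15.96 ± 3.68 to 166 ± 38.7 CPM, *Egr2* from 3.15 ± 1.42 to 32.0 ± 12.97 CPM and *Egr3* from 10.9 ± 6.95 to 88.6 ± 28.5 CPM. *Egr4*, the fourth member, rose from 0.224 ± 0.158 to 6.11 ± 2.82 CPM and had the largest log2 fold change of the list, 4.82 ± 0.48. The AP-1 subunits did not move together. *Fos* rose from 3.44, 2.90, 4.35 and 6.26 CPM to 20.4, 16.03, 18.5 and 20.2 CPM and *Fosl1* from 1.11 ± 0.297 to 11.8 ± 4.18 CPM, although *Fosl1* shares 57.2% of its exon bases with *Ccdc85b* and its value is uncertain. *Junb* was abundant throughout, at 437, 463, 554 and 542 CPM without and 971, 972, 1007 and 867 CPM with beads, and its log2 fold change of 0.95 (adjusted p = 1.36e-05) fell short of 2-fold except without stimulated replicate 4, where it was 1.01. *Fosl2*, a FOS-related subunit, was the only list member with a log2 fold change under 0, at 419, 358, 369.8 and 339 CPM before and 326, 293, 317 and 294 CPM after (-0.25, adjusted p = 0.0145, under 2-fold).

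Promoters of 4 genes are shown, *Il2* for the cytokines, *Nr4a1* and *Nr4a3* for the immediate early factors and *Tnfaip3* for the feedback genes described below, to set the letters of T cell receptor and cAMP response sites beside their values. They are the RefSeq windows from 250 bases before to 50 bases after the annotated start site, 5′ to 3′ on the gene's strand, in GRCm38.p6, *Il2* at chr3:37125905-37126204 (minus strand), *Nr4a1* at chr15:101266596-101266895 (plus), *Nr4a3* at chr4:48045055-48045354 (plus) and *Tnfaip3* at chr10:19015361-19015660 (minus). Capitals mark matches on either strand to an AP-1 site (TGANTCA), a cAMP response element (CRE, TGACGTCA), a CRE core site (TGACG, which every full CRE also holds) or the NFAT core (GGAAA).
Il2 promoter: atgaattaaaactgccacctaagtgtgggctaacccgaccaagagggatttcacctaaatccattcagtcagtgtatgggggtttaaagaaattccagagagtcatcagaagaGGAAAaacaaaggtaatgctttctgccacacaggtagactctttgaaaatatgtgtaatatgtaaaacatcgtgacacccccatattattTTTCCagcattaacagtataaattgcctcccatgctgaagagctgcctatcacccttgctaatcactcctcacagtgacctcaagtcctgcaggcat
Nr4a1 promoter: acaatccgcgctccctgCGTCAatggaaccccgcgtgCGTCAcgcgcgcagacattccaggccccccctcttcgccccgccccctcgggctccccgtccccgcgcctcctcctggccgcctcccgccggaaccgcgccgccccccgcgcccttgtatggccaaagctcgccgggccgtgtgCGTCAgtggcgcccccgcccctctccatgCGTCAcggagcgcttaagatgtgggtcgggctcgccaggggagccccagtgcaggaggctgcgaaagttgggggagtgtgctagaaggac
Nr4a3 promoter: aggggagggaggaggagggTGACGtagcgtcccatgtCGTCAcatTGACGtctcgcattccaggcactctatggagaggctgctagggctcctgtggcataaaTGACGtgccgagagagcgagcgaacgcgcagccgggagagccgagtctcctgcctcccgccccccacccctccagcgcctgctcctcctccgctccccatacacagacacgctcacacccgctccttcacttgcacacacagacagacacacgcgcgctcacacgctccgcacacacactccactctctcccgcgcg
Tnfaip3 promoter: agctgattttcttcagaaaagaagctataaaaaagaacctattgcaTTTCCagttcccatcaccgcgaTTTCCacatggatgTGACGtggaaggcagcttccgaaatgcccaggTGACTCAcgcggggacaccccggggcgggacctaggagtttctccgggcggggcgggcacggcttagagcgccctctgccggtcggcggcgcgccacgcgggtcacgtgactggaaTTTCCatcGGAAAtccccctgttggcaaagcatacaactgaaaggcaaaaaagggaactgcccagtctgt

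The *Il2* window held the NFAT core at -137 and -47 from the start site and no CRE core site. The *Nr4a1* window held 4 CRE core sites, at -233, -213, -69 and -40, and the *Nr4a3* window also 4, at -231, -213, -205 and -147, while neither held the NFAT core. Windows of other immediate early genes, not shown, held fewer CRE core sites, 2 in *Fos*, 1 in *Junb*, 0 in *Fosl2* and 0 or 2 in those of *Egr2*. In the *Tnfaip3* window shown, an AP-1 site lay at -136, a CRE core site at -168 and the NFAT core at 4 places. Another *Tnfaip3* window, at chr10:19011914-19012213 (minus strand), held no match to any of these sites. Over 32851 promoters of the table, 7.81% held the AP-1 site, 1.79% the full CRE, 20.8% the CRE core site and 61.3% the NFAT core. Among promoters of genes tested here these shares were 4.86%, 3.08%, 31.2% and 58.9%, among promoters of DEGs that rose 5.26%, 2.89%, 33.7% and 57.9%, and among those of DEGs that fell 5.85%, 1.79%, 26.1% and 57.3%. The letters are a description of these windows and no measure of binding.

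Of 25 tested activation and effector transcription factors 16 rose and 2 fell, with a median log2 fold change of 1.25. *Irf4*, which scales effector expansion with T cell receptor signal strength, had the largest change of the list, from 43.7, 48.4, 56.2 and 126 CPM to 1545, 1369.5, 1069.6 and 949 CPM (log2 fold change 4.18 ± 0.35, adjusted p = 3.58e-06). *Irf8*, its relative, rose from 53.7, 80.0, 126 and 209.9 CPM to 1403, 1278, 991 and 826 CPM, and *Myc*, a driver of growth metabolism, from 62.8, 63.3, 60.6 and 89.5 CPM to 1291, 1217, 826 and 624 CPM. In each of these 3 genes unstimulated replicate 4 was the highest control and stimulated replicate 4 the lowest stimulated sample, and the groups stayed well apart. The T-box factors that direct cytotoxic differentiation followed, *Tbx21* (T-bet) from 41.4 ± 4.35 to 179.5 ± 73.8 CPM and *Eomes* from 8.13 ± 2.82 to 80.4 ± 41.3 CPM. *Zeb2*, a T-bet target that promotes terminal effector cells, rose from 2.55 ± 1.34 to 29.6 ± 9.50 CPM, a log2 fold change of 3.53. The 2 factors that fell were *Rora*, from 39.1 ± 2.44 to 18.2 ± 5.22 CPM, and *Mycn*, a lowly expressed MYC relative, from 3.04 ± 0.832 to 1.22 ± 0.131 CPM. *Batf*, an AP-1 partner of IRF4, stood at 34.2, 30.01, 33.5 and 28.1 CPM before and 29.5, 30.7, 34.2 and 27.7 CPM after, with overlapping groups and a log2 fold change of -0.026 (adjusted p = 0.823).

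Activation and costimulatory surface molecules rose in 14 of 26 tested members and fell in 0, with a median log2 fold change of 1.73. *Cd69*, an early activation marker that retains cells in tissue, went from 28.6, 26.9, 27.1 and 36.3 CPM to 427, 366, 240.0 and 149 CPM (3.34 ± 0.30, adjusted p = 4.88e-06). *Il2ra*, the high-affinity chain of the IL-2 receptor (CD25), went from 272, 277, 296 and 388 CPM to 1531, 1577, 1358 and 1057 CPM, a log2 fold change of 2.18 ± 0.16. *Tnfrsf9*, which encodes the costimulatory receptor 4-1BB, rose from 461 ± 153 to 2106 ± 149.8 CPM. The largest changes of the list were those of *Tnfsf14* (LIGHT), from 4.48 ± 1.79 to 62.6 ± 25.7 CPM, and *Cd83*, from 12.2 ± 4.91 to 136 ± 25.9 CPM. *Tnfsf9*, the ligand of 4-1BB, gave 5.41 ± 0.635 and 7.49 ± 0.610 CPM, a log2 fold change of 0.48 (adjusted p = 0.00727) that did not reach 2-fold, and *Cd28* itself gave -0.55.

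Inhibitory receptors and ligands were mixed, with 8 of 15 tested members higher and 2 lower, or 66.7% beside 22.1% over all genes. *Lag3*, a receptor for MHC class II, rose from 71.6, 79.4, 108 and 113 CPM to 193, 210.1, 233 and 246 CPM, and *Havcr2*, which encodes TIM-3, from 0.879, 1.32, 1.90 and 3.03 CPM to 11.3, 12.9, 8.05 and 7.26 CPM. *Cd160*, a receptor shared with natural killer cells, rose from 9.35, 8.70, 8.26 and 12.6 CPM to 94.5, 84.2, 52.5 and 51.4 CPM. *Cd274*, the ligand of PD-1, rose from 34.1 ± 7.78 to 151 ± 40.2 CPM, and *Btla*, a receptor for HVEM, from 23.5 ± 1.82 to 95.9 ± 14.6 CPM. *Pdcd1*, which encodes PD-1 itself, was 26.2, 36.4, 61.0 and 57.3 CPM in unstimulated replicates 1 to 4 and 50.2, 59.9, 60.4 and 69.4 CPM in stimulated ones. The 2 groups overlapped, and the log2 fold change was 0.41 ± 0.23 (adjusted p = 0.145). *Ctla4*, a rival of CD28 for its ligands, was high in both groups, at 1173 ± 44.5 and 1077 ± 176 CPM, with a log2 fold change of -0.11 (adjusted p = 0.362). The 2 members that fell were *Nt5e*, which encodes the adenosine-producing enzyme CD73, from 68.4 ± 3.42 to 24.3 ± 5.49 CPM, and *Lair1*, a collagen receptor, from 4.14 ± 1.01 to 1.39 ± 0.330 CPM.

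Of 37 tested signalling feedback genes, which act on the T cell receptor and on other receptors, 18 rose and 3 fell, with a median log2 fold change of 0.96. *Spry1*, an inhibitor of the MAP kinase route, had the largest rise, from 3.37, 3.24, 3.44 and 5.63 CPM to 113, 89.1, 46.0 and 39.0 CPM (4.21 ± 0.37). *Dusp5*, a nuclear ERK phosphatase, rose from 137 ± 8.93 to 488 ± 76.9 CPM, and *Rgs16*, which shortens G protein signals, from 20.99 ± 8.22 to 343 ± 138 CPM. Of the NF-κB inhibitors, *Nfkbid* rose from 19.5 ± 4.30 to 259 ± 84.5 CPM and *Nfkbia* from 86.4 ± 6.63 to 235 ± 17.3 CPM. *Socs1*, an inhibitor of cytokine receptor signalling, rose from 64.5 ± 4.62 to 194 ± 67.4 CPM. *Tnfaip3*, which encodes the NF-κB inhibitor A20, was already high at 339, 317, 323 and 316 CPM before stimulation and reached 599, 544, 474 and 494 CPM, without overlap between the groups. Its log2 fold change of 0.72 ± 0.086 (adjusted p = 3.28e-05) was below 2-fold. *Rgs2*, another regulator of G protein signals, was also below 2-fold, with 27.9, 29.7, 38.6 and 39.5 CPM before and 57.4, 51.5, 46.8 and 53.2 CPM after (0.63 ± 0.13, adjusted p = 0.00143). The 3 members that fell were *Dgka*, which removes diacylglycerol and so limits RAS activation, from 991 ± 72.7 to 389 ± 39.2 CPM, the p38 and JNK phosphatase gene *Dusp10*, from 34.0 ± 4.59 to 11.5 ± 3.22 CPM, and *Zfp36l2*, which encodes an mRNA-destabilizing protein, from 443 ± 76.9 to 189 ± 7.14 CPM.

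The cAMP pathway, on which PGE2 acts, had 5 members higher and 3 lower among 28 tested, or 28.6% beside 22.1% over all genes, and its median log2 fold change of -0.085 was close to that of all genes. The EP2 gene *Ptger2* went from 8.15, 7.38, 7.71 and 7.56 CPM to 16.6, 16.7, 14.6 and 13.3 CPM, and the log2 fold change of 1.01 ± 0.11 (adjusted p = 1.67e-05) lay so near 2-fold that 11 of 14 alternatives, 7 of them single libraries left out, took it below. The EP4 gene *Ptger4* went from 23.8, 22.5, 20.4 and 22.2 CPM to 72.5, 65.0, 53.2 and 43.8 CPM, a log2 fold change of 1.42 ± 0.15, and it shares 16.5% of its exon bases with *Ttc33*. *Adora2b*, an adenosine receptor that also raises cAMP, rose most, from 0.316, 0.507, 0.496 and 0.484 CPM to 15.9, 13.8, 11.5 and 7.86 CPM (4.75 ± 0.27). *Prkar2a*, a regulatory subunit of protein kinase A, rose from 32.0 ± 2.80 to 95.7 ± 19.6 CPM, whereas *Prkacb*, a catalytic subunit, fell from 333 ± 51.7 to 128 ± 2.88 CPM. *Adcy7*, an adenylyl cyclase, fell from 220.1 ± 29.1 to 91.7 ± 11.2 CPM, and *Pde3b*, a phosphodiesterase that removes cAMP, fell from 437 ± 74.5 to 194 ± 18.7 CPM. *Crem*, a cAMP-responsive transcription factor gene, was 218, 228, 248 and 233 CPM without and 228, 239.8, 226 and 197 CPM with beads, with overlapping groups and a log2 fold change of -0.042 ± 0.086 (adjusted p = 0.683). *Pde4b*, another cAMP phosphodiesterase, had a log2 fold change of -0.60 (adjusted p = 1.07e-04), below 2-fold, and *Per1*, a clock gene with CREB-driven transcription, one of -0.028 (adjusted p = 0.733).

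Cytotoxic granule genes rose in 7 of 11 tested members and fell in 0, with a median log2 fold change of 1.18. *Gzmb*, encoding granzyme B, which starts apoptosis in target cells, went from 287, 349.8, 368 and 638 CPM to 2824, 2999, 2796 and 2621 CPM (2.79 ± 0.22, adjusted p = 2.62e-06). Unlike the cytokines, its stimulated values differed little between replicates, although unstimulated replicate 4 was again the highest control. *Prf1*, encoding the pore-forming perforin, rose from 10.8, 6.19, 6.45 and 6.11 CPM to 24.3, 21.1, 16.6 and 16.7 CPM, and *Gzmc* from 4.21 ± 1.30 to 31.3 ± 3.63 CPM. *Serpinb9*, an inhibitor of granzyme B, rose from 53.0 ± 16.8 to 331 ± 95.7 CPM. Per kilobase, the mean level of *Gzmb* went from 275 to 1858 FPKM and that of *Prf1* from 2.75 to 7.24 FPKM, so granzyme B remained by far the more abundant of the pair. Granzyme genes are close copies of each other and reads may be divided between them.

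Genes of the stem-like and naive state fell. Of 18 tested members 8 fell and 0 rose, with a median log2 fold change of -0.89, beside 9.44% lower over all genes. *Tcf7*, which encodes TCF1 and defines these cells, went from 1539.8, 1243, 1049 and 916 CPM to 379, 342, 437 and 469 CPM, a log2 fold change of -1.53 ± 0.15 (adjusted p = 7.69e-06). The groups did not overlap, and the lowest stimulated sample still held 342 CPM. *Lef1*, its partner, went from 259.7, 219, 185 and 155 CPM to 73.2, 71.1, 78.0 and 74.8 CPM. *S1pr1*, the receptor for lymph node egress, had the largest fall of the list, from 396, 336, 272 and 213 CPM to 66.6, 57.9, 64.1 and 58.9 CPM (-2.28 ± 0.16), and *Klf2*, the transcription factor that drives it, fell from 217, 202, 201 and 159.9 CPM to 54.8, 50.3, 66.2 and 53.0 CPM (-1.78 ± 0.11). *Il6ra*, a receptor chain for IL-6, fell from 14.3 ± 5.62 to 4.44 ± 1.09 CPM. Log2 fold changes below 2-fold were measured for *Ccr7* at -0.41 and *Il7r* at -0.89, with adjusted p of 0.0107 and 2.45e-04. *Ccr7*, whose product guides cells to lymph nodes, was 1672, 1619.9, 1651 and 1663 CPM before and 1004, 1037, 1404 and 1505 CPM after. *Il7r* passed 2-fold without stimulated replicate 4 and under upper-quartile scaling, at -1.01 in both.

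Quiescence genes and growth brakes fell in 9 of 23 tested members and rose in 0, with a median log2 fold change of -0.75. *Klf3* went from 99.2, 74.8, 59.4 and 51.3 CPM to 18.5, 17.5, 17.98 and 18.2 CPM, with nearly identical values in the stimulated samples and a log2 fold change of -1.96 ± 0.17. *Pik3ip1*, an inhibitor of PI3 kinase, went from 243, 199.6, 154 and 122 CPM to 38.9, 33.5, 39.1 and 41.1 CPM, and *Cdkn1b*, encoding the cell cycle inhibitor p27, from 556, 505, 424 and 402 CPM to 89.9, 98.1, 158 and 182 CPM. *Phlpp1*, a phosphatase of AKT, fell from 123, 102, 85.3 and 79.1 CPM to 47.4, 45.0, 44.7 and 43.6 CPM (-1.09 ± 0.12, adjusted p = 1.76e-05). *Klf4*, a growth-restraining factor, was low, at 1.34, 1.77, 3.42 and 4.48 CPM before and 1.78, 1.93, 1.93 and 2.90 CPM after, and the groups overlapped (-0.38, adjusted p = 0.37). *Btg2*, an antiproliferative gene, had a log2 fold change of -0.77 (adjusted p = 4.44e-05), below 2-fold.

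**Figure D3:**
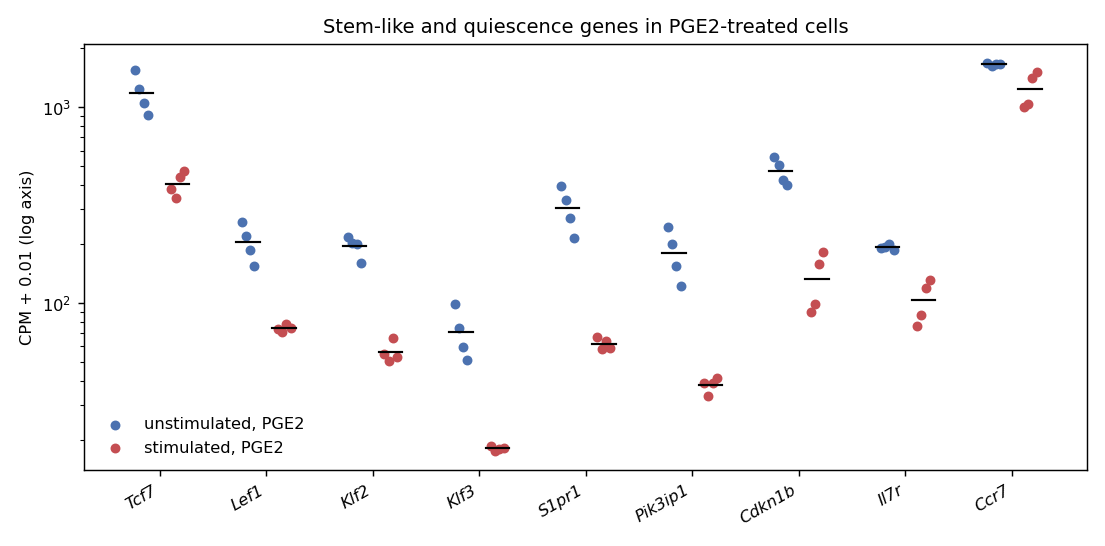
CPM + 0.01 on a log axis for 9 stem-like and quiescence genes in the 4 unstimulated and the 4 stimulated PGE2 samples, replicates 1 to 4 from left to right, with black bars at the group means. All 9 are lower in every stimulated sample than in any unstimulated one, and the mean of *Tcf7* goes from 1187 to 407 CPM.

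Ribosome biogenesis was the list with the highest share of called members, since 32 of 33 tested rose and 0 fell, with a median log2 fold change of 2.61. *Npm1*, the exception, had 0.89 (adjusted p = 8.92e-05). *Srm*, the spermidine synthase gene and a MYC target placed in this list, went from 16.2, 16.2, 14.5 and 22.4 CPM to 399, 354, 243 and 180.4 CPM (4.10 ± 0.26, adjusted p = 1.29e-06). *Polr1b*, a core subunit of RNA polymerase I, went from 11.5, 11.9, 10.4 and 15.2 CPM to 262, 257, 171 and 139 CPM, and *Rrp9*, a component of the pre-rRNA processome, from 16.97 ± 2.56 to 231 ± 96.3 CPM. In these genes the stimulated values again fell into a higher pair (replicates 1 and 2) and a lower pair (replicates 3 and 4), and the lower pair was still far above every control. *Ncl*, encoding nucleolin, was among the largest rises in absolute level, from 884 ± 49.6 to 2573 ± 707 CPM, as was *Eif5a*, a translation factor gene, from 568 ± 57.0 to 1862 ± 396 CPM.

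Amino acid transport, ATF4 and one-carbon genes rose in 11 of 22 tested members and fell in 0. *Slc7a1*, a transporter of arginine and lysine, rose from 63.4 ± 9.49 to 415 ± 74.4 CPM, *Shmt1*, of one-carbon metabolism, from 13.5 ± 2.08 to 151 ± 50.7 CPM, and *Chac1*, an ATF4 target that degrades glutathione, from 1.46 ± 0.680 to 12.1 ± 3.15 CPM. Of 21 cholesterol genes 9 rose and 2 fell, or 52.4% beside 22.1% over all genes. *Hsd17b7*, for synthesis, rose from 4.61 ± 1.19 to 22.3 ± 8.83 CPM, while the efflux pumps *Abcg1* and *Abca1* fell, from 99.3 ± 12.3 to 40.3 ± 0.322 CPM and from 13.1 ± 3.73 to 5.57 ± 0.977 CPM. *Fdps*, also called higher, was counted at only 0.614 ± 0.256 and 2.17 ± 0.402 CPM and has close pseudogene copies that can share its reads, so its value is uncertain. Of 19 glycolysis genes 2 rose and 1 fell, a share of 15.8% beside 22.1% over all genes. Whatever the size of the change, 11 of the 19 were higher and 1 lower at an adjusted p below 0.05 in the same test. Over all 14507 genes 4717 were higher and 4592 lower by that rule. The median log2 fold change of the list was 0.38. *Hk2*, the inducible hexokinase, rose from 225 ± 5.28 to 479.6 ± 70.7 CPM and *Slc16a1*, a lactate transporter, from 69.6 ± 6.12 to 372 ± 90.4 CPM, whereas *Pfkm*, a phosphofructokinase gene that shares 10.7% of its exon bases with *Senp1*, fell from 52.2 ± 9.74 to 22.7 ± 8.28 CPM.

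Of 23 tested G1 and S phase genes 4 rose and 1 fell, so 21.7% were DEGs, close to the 22.1% over all genes. *Ccnd2*, encoding cyclin D2, rose from 192 ± 12.4 to 765 ± 209.6 CPM and the CDK phosphatase gene *Cdc25a* from 32.4 ± 2.25 to 82.8 ± 12.9 CPM. *Cdkn1a*, encoding the inhibitor p21, rose as well, from 96.5 ± 37.2 to 242 ± 55.6 CPM, and *E2f2* fell from 157 ± 7.40 to 56.6 ± 20.1 CPM. No member of the 18 mitosis genes was a DEG, although 15 had an adjusted p below 0.05 with a fall of less than 2-fold, and their median log2 fold change was -0.59.

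Among 15 BCL2 family genes, which set the threshold for apoptosis, 5 rose and 2 fell, or 46.7% beside 22.1% over all genes. *Bcl2l1*, encoding the survival protein BCL-XL, went from 32.8, 30.6, 35.5 and 42.4 CPM to 403, 364, 299 and 214 CPM (3.20 ± 0.20). *Bcl2a1d* and *Bcl2a1b*, close copies of a further survival gene between which reads may be divided, rose from 5.81 ± 2.55 to 56.6 ± 7.07 CPM and from 2.65 ± 0.700 to 20.4 ± 4.996 CPM. *Bid*, a proapoptotic member, rose from 10.7 ± 0.781 to 53.0 ± 10.1 CPM, and it shares 17.7% of its exon bases with *Bcl2l13*. Both members that fell are proapoptotic, *Bcl2l11* (BIM) from 342 ± 76.4 to 140.4 ± 11.8 CPM and *Bmf* from 14.3 ± 2.69 to 3.55 ± 1.13 CPM.

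Interferon-stimulated genes rose in 9 of 23 tested members and fell in 0, with a median log2 fold change of 0.93. *Isg15*, a ubiquitin-like modifier, went from 4.92, 4.42, 3.94 and 5.52 CPM to 53.5, 57.9, 23.9 and 26.6 CPM, *Ifit1*, a sensor of foreign RNA, from 5.49 ± 1.33 to 27.7 ± 10.5 CPM and *Ifi44* from 0.452 ± 0.245 to 2.27 ± 0.764 CPM. Cytokine receptor and JAK-STAT genes moved both ways, with 4 of 23 higher and 3 lower, or 30.4% beside 22.1% over all genes. *Stat5a*, which carries the IL-2 signal, rose from 84.3 ± 7.78 to 459 ± 75.2 CPM, *Il15ra* from 9.26 ± 1.46 to 47.2 ± 7.18 CPM and *Il12rb1*, an IL-12 receptor chain, from 26.3 ± 7.23 to 75.2 ± 7.68 CPM. All 3 members that fell are interferon receptor chains, *Ifngr1* from 1122 ± 126 to 468 ± 78.9 CPM, *Ifngr2* from 45.8 ± 3.80 to 18.6 ± 3.22 CPM and *Ifnar1* from 371 ± 11.7 to 178 ± 29.6 CPM. The other chains of the IL-2 receptor changed by less than 2-fold, *Il2rg*, the common γ chain, from 266, 263, 258 and 247 CPM to 362, 369.7, 367 and 329.9 CPM (0.48 ± 0.067, adjusted p = 9.76e-05) and *Il2rb*, the β chain, from 1592, 1418, 1409.9 and 1422 CPM to 1011, 1004, 1043 and 1014 CPM (-0.51 ± 0.060, adjusted p = 3.19e-05). For both the groups did not overlap, the γ chain being higher and the β chain lower after stimulation.

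Of 17 homing and adhesion receptors 1 rose and 5 fell, or 35.3% beside 22.1% over all genes. *Ccr8*, a chemokine receptor of tissue T cells, rose from 0.973 ± 0.406 to 12.1 ± 1.42 CPM, while *S1pr4*, an S1P receptor, fell from 257 ± 41.1 to 73.9 ± 13.7 CPM, *Cxcr3*, a receptor for inflamed tissue, from 48.8 ± 10.5 to 18.1 ± 1.95 CPM and *Ccr2* from 10.1 ± 1.28 to 4.42 ± 0.999 CPM. Without stimulated replicate 4 this list had 9 DEGs. Of 23 genes of the T cell receptor complex and its proximal signalling 2 rose and 1 fell, or 13% beside 22.1% over all genes, with a median log2 fold change of -0.038. *Lcp2*, encoding the adaptor SLP-76, rose from 129 ± 11.1 to 407 ± 79.5 CPM, *Malt1*, of the NF-κB route, from 208 ± 6.59 to 445 ± 39.4 CPM, and *Plcg1*, the phospholipase that starts the calcium route, fell from 433 ± 19.7 to 201 ± 39.5 CPM.

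Over all genes, the largest rises without overlap between groups, among genes averaging 1 CPM or more, were, after the cytokines and chemokines above, those of *Fzd9*, *Utf1* and *AC153498.1*. *Fzd9*, a WNT receptor gene, had 1 read over the 4 unstimulated samples and 580 over the 4 stimulated ones, a ratio per effective library size of 731 with an exact 95% interval of 131 to 28928 that covers counting error only. Its stimulated values were 7.63, 7.20, 4.04 and 1.92 CPM. *Utf1*, a chromatin-associated factor gene known from embryonic stem cells, rose from 0.281, 0.282, 0.854 and 1.37 CPM to 42.3, 36.9, 32.8 and 23.7 CPM. *AC153498.1* shares exon bases with *Ifng* (12.3% of its own), and since the strand setting of the counting is not stated its 7.67 ± 4.45 CPM after stimulation are uncertain. The largest falls were those of *Gucy2e*, a guanylyl cyclase gene, from 14.8, 15.5, 18.6 and 15.7 CPM to 0.807, 1.00, 2.67 and 3.59 CPM (-2.99 ± 0.35), and *Cyp2s1*, a cytochrome P450 gene, from 7.22 ± 1.94 to 0.902 ± 0.328 CPM. *Itga7*, an integrin chain for laminin, fell from 50.8, 54.5, 80.7 and 60.2 CPM to 4.27, 5.23, 15.4 and 13.8 CPM and *Jdp2*, a repressor of AP-1, from 30.1, 30.1, 35.7 and 38.6 CPM to 3.13, 2.89, 7.16 and 9.01 CPM. In both the fall was deeper in stimulated replicates 1 and 2 than in replicates 3 and 4. *Siah3*, *Grhl3*, *Rtkn2*, *Map2k6*, the transcript *Gm15513* and a second, minor gene model under the symbol Aldoa (ENSMUSG00000114515) completed the 10, with log2 fold changes of -2.68, -2.63, -2.56, -2.56, -2.64 and -2.48. By absolute level the falls of *Arhgap45*, a GTPase-activating protein gene, from 1232 ± 181 to 428 ± 27.2 CPM, and *Smc4*, a condensin subunit gene, from 1189.6 ± 118 to 462 ± 68.1 CPM, stood with those of *Tcf7*, *Dgka* and *Ifngr1*. No gene went from at most 1 CPM in every unstimulated sample to at least 10 CPM in every stimulated one, or the reverse.

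The same stimulation without PGE2 was the closest comparison, and it asks whether PGE2 altered the response to the beads. There 3301 of 14205 genes (23.2%) were DEGs, 1640 higher and 1661 lower. Of 13999 genes tested in both, 2516 were DEGs in both, which is 82.2% of the 3061 called with PGE2 and 78.0% of the 3227 called without, and all 2516 had the same direction. The log2 fold changes of the 2 responses, which share no sample, had a Pearson r of 0.94 across the 13999 genes, which are not independent of each other, and the slope through the origin of the response with PGE2 on that without was 0.970 over the 3772 genes called in either. The interaction of beads and PGE2, tested in 1 fit of all 16 samples, was past an adjusted p of 0.05 with a log2 difference of at least 1 for 35 of 15096 genes (0.232%), 23 with a higher and 12 (0.0795%) with a lower response under PGE2. Without the size threshold there were 113 (0.749%), 78 of them higher (0.517%), and 1415 genes (9.37%) had an unadjusted p below 0.05. These counts are sensitive to the method, since leaving out 1 of the 16 libraries gave 18 to 72, a replicate block 60, limma on log2(FPKM + 1) gave 8 and a test against a 1.5-fold difference gave 0. Among the lists, 21 of 465 tested members had an interaction with an adjusted p below 0.05, and 0 of them were cytokines, chemokines or immediate early factors. With replicate number as a block 71 members passed, 4 of them from these 3 lists and named after their values were seen, namely *Ltb* (interaction -0.39, adjusted p = 0.00832), *Fosl2* (-0.84, 0.0219), *Ier2* (-0.35, 0.0267) and *Jund* (-0.49, 0.0417), each with the lower response under PGE2. For *Ifng* the log2 fold change was 7.49 with and 6.54 without PGE2 (interaction 0.92 ± 0.92, adjusted p = 0.889) and for *Il2* 7.24 and 5.95 (1.25 ± 1.18, adjusted p = 0.871), and neither passed with the block (1.30 ± 1.18, adjusted p = 0.669 for *Il2*, and 0.86 ± 0.98, 0.745 for *Ifng*).

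**Figure D4:**
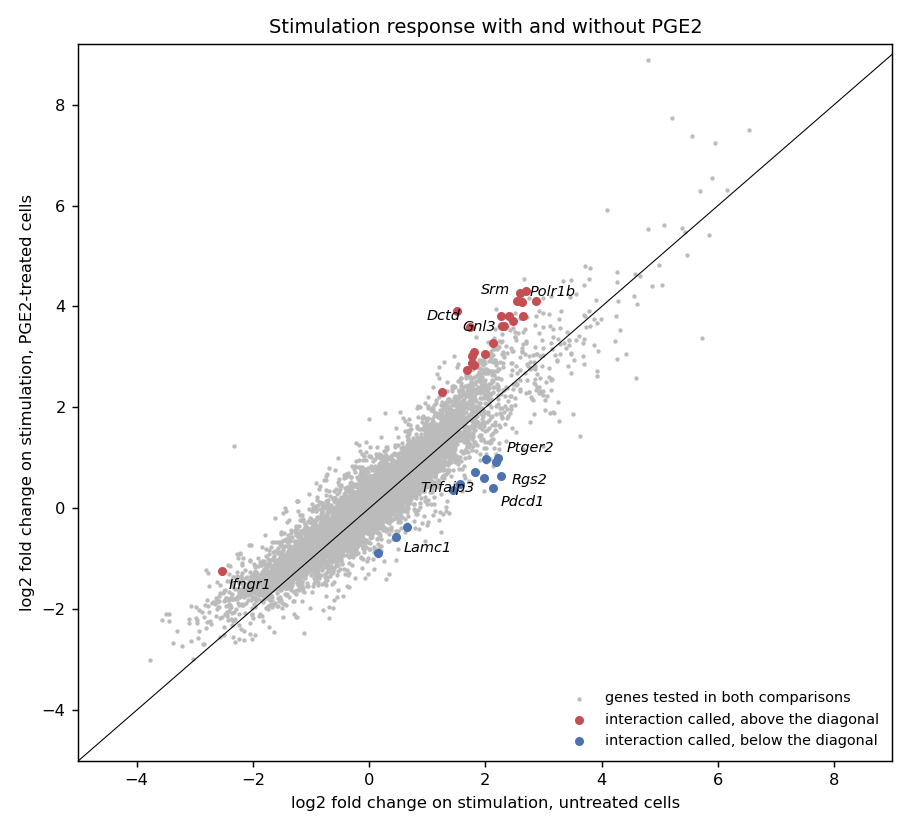
Log2 fold change on stimulation in PGE2-treated cells against that in untreated cells for 13999 genes tested in both, with the line of equality. Red and blue points are genes called by the interaction test above and below the line, and some are labelled. Most genes lie along the line, *Pdcd1* lies at 0.41 against 2.14, and *Srm* at 4.10 against 2.55.

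Of the 34 interaction genes tested in both comparisons, 9 had positive log2 fold changes in both and smaller ones with PGE2. A further 3 had log2 fold changes of opposite signs, negative with and positive without PGE2, all between -0.89 and 0.65 and so below 2-fold. The log2 fold change of *Pdcd1* was 0.41 with and 2.14 without PGE2, an interaction of -1.75 ± 0.36 (adjusted p = 0.0316). Its 4 untreated controls had 7.98, 12.3, 18.8 and 22.2 CPM and the 4 stimulated untreated samples 72.5, 76.0, 62.7 and 63.6 CPM. The stimulated levels of the 2 conditions overlapped, while every unstimulated PGE2 sample lay above every untreated control. The call for *Pdcd1* ended, with adjusted p between 0.0521 and 0.0866, when unstimulated untreated replicate 2, unstimulated PGE2 replicate 3 or 4, or any of replicates 1 to 3 of either stimulated group was left out. *Tnfaip3* had log2 fold changes of 0.72 with and 1.81 without PGE2 (-1.12 ± 0.13, adjusted p = 8.73e-04). Its level was 166 ± 16.8 CPM in untreated controls, 324 ± 10.7 CPM in PGE2-treated controls, and 589 ± 67.8 and 528 ± 55.7 CPM in the respective stimulated groups. *Rgs2* had 0.63 against 2.27 (-1.67 ± 0.27, adjusted p = 0.00624), from 9.19 ± 3.70 CPM in untreated controls and 33.9 ± 6.00 CPM in those with PGE2, and the stimulated groups reached 45.3 ± 2.97 and 52.2 ± 4.37 CPM. The stimulated level of *Ptger2* was lower with PGE2, without overlap, at 16.6, 16.7, 14.6 and 13.3 CPM against 34.0, 31.7, 25.8 and 22.9 CPM without, from controls of 7.70 ± 0.332 and 6.15 ± 0.487 CPM (interaction -1.23 ± 0.17, adjusted p = 0.00336). *Gch1*, the entry enzyme of tetrahydrobiopterin synthesis, had log2 fold changes of 0.92 with and 2.18 without PGE2, *Epcam*, an adhesion molecule, 0.60 and 1.97, *Cnih2* 0.37 and 1.45, and *Tnfsf9* 0.48 and 1.57. The call for *Tnfsf9*, which shares 14.9% of its exon bases with *Gm11110*, was lost when replicate 2 of either stimulated group, unstimulated untreated replicate 2 or unstimulated PGE2 replicate 3 was left out. Below a log2 difference of 1, *Batf* (-0.67, adjusted p = 0.0415), *Per1* (-0.45, 0.0125) and *Btg2* (-0.58, 0.0415) also had the lower response with PGE2.

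A larger group, 21 of these 34 genes, had positive log2 fold changes in both and larger ones with PGE2. The excess of higher over lower interactions depended on the processing, with 15 against 12 under RLE factors, 2 against 6 with limma on log2(FPKM + 1), and equal numbers in 3 of the 16 fits with 1 library left out (without stimulated PGE2 replicate 1 or 2, or stimulated untreated replicate 4). Of 33 ribosome biogenesis factors 8 had an interaction past an adjusted p of 0.05, all with the larger rise under PGE2, namely *Srm* (1.53 ± 0.28, adjusted p = 0.0149), *Polr1b* (1.44 ± 0.25, 0.00955), *Gnl3* (1.30), *Dkc1* (1.08), *Nop58* (0.98), *Polr1a* (0.97), *Nat10* (0.93) and *Rrp1b* (0.88). With the replicate block 20 of the 33 passed, all in this direction. *Srm* was 65.8, 68.5, 62.9 and 69.7 CPM in untreated controls and 16.2, 16.2, 14.5 and 22.4 CPM in PGE2-treated controls, without overlap, and 465, 434, 365 and 307 CPM and 399, 354, 243 and 180.4 CPM in the stimulated groups, which did overlap. *Polr1b* followed the same order, at 41.6 ± 3.84 and 12.3 ± 2.08 CPM in the controls and 259 ± 35.7 and 207 ± 61.9 CPM after stimulation. The calls of *Srm*, *Polr1b* and *Gnl3* held whichever of the 16 libraries was left out, and those of *Dkc1*, *Nop58*, *Polr1a*, *Nat10* and *Rrp1b* were lost in 8, 14, 11, 7 and 13 of these 16 fits. Other genes with the larger rise were *Dctd*, of thymidylate supply (interaction 1.84 ± 0.25), *Car12*, a carbonic anhydrase (log2 fold change 4.31 with and 2.70 without), *Ifrd2* (3.81 and 2.27), *Pprc1*, a coactivator of mitochondrial biogenesis (3.80 and 2.40), and *Tcam1* (3.91 and 1.51). *D030028A08Rik* (4.27 and 2.60) shares 24.5% of its exon bases with *Cdk5rap3* and is uncertain. *Btla* (2.05 and 1.28) and *Bid* (2.32 and 1.42) differed in the same direction by less than 1. With 1 library left out, the calls of *Tcam1* and *D030028A08Rik* were lost in 13 of 16 fits each, that of *Bid* in 6, that of *Btla* in 1, without unstimulated untreated replicate 2, and those of *Batf* and *Btg2* above in 12 each. On log2(FPKM + 1) with limma, 18 of the 29 interactions named here that could be fitted missed the threshold, among them *Pdcd1* (adjusted p = 0.0777), *Srm* (0.0699), *Polr1b* (0.109) and *Gnl3* (0.0892).

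*Ifngr1*, the ligand-binding chain of the interferon-γ receptor, fell by 1.25 with and by 2.53 without PGE2 on the log2 scale (1.25 ± 0.20, adjusted p = 0.00682). Its level in the stimulated samples was 399, 402, 518 and 552 CPM with PGE2 and 102, 96.2, 143 and 157 CPM without, and the controls had 1122 ± 126 and 709.9 ± 44.3 CPM. These groups did not overlap either before or after stimulation. *Klf2* fell by 1.78 with and by 2.63 without PGE2 (0.83 ± 0.18, adjusted p = 0.0391), a call that was lost in 13 of the 16 fits with 1 library left out and held only without unstimulated untreated replicate 4, unstimulated PGE2 replicate 1 or stimulated PGE2 replicate 4. *Adcy6*, an adenylyl cyclase gene, had -0.088 with and -0.81 without PGE2 (0.69, adjusted p = 0.0479), a call lost in 14 of the 16 fits. *Tcf7* had -1.53 and -1.94, with an interaction of 0.39 ± 0.21 (adjusted p = 0.651).

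**Figure D5:**
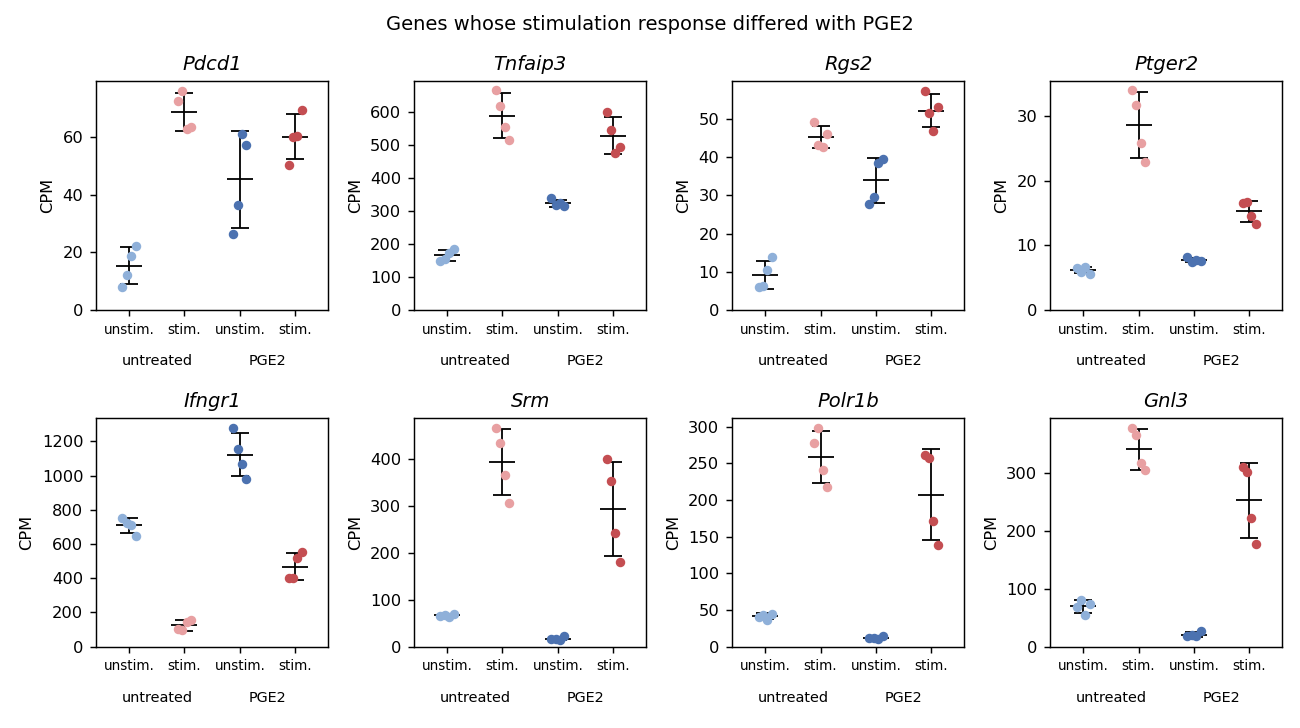
CPM of 8 genes with a called interaction in the 4 samples of each of the 4 groups, with bars at mean ± SD (n = 4). *Pdcd1*, *Tnfaip3* and *Rgs2* are higher in PGE2-treated than in untreated controls, *Srm*, *Polr1b* and *Gnl3* are lower, *Ptger2* is lower and *Ifngr1* higher in stimulated samples with PGE2.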

How the data were processed

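RNA-seq was done on total RNA of CD8+ T cells in 4 groups of 4 samples, grouped by the labels. Per the submitters' processing notes and the methods, reads were aligned to the mouse genome (GRCm38/mm10) with HISAT2 2.0.5 and read counts per gene were made by the authors with featureCounts 1.5.0-p3, in a pipeline that names DESeq2 1.20.0. The strand setting is not given in the sources used here. The deposited table holds these raw counts for 54532 genes and FPKM values that the authors computed from them per kilobase and sequencing depth. It held 0 columns of other series.

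Counts were tested with edgeR 4.0.16 in R 4.3.3 (quasi-likelihood test, TMM factors, filterByExpr with a minimum count of 10), on the 8 samples of each comparison and on all 16 for the interaction, with Benjamini-Hochberg adjustment. A gene was called at an adjusted p below 0.05 if it also changed at least 2-fold, or for the interaction by a log2 difference of 1. Printed CPM use the TMM factors of all 16 samples. The SE is the log2 fold change divided by the square root of the F statistic. Total counts were 22678254 to 42950763 over the 16 samples. Replicates of a group differed by more than sampling noise.

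Genes named are key members of each list, the 3 largest rises and falls among the DEGs of a list, the 10 largest rises and falls over all genes averaging 1 CPM or more, the 5 largest of each in mean CPM, genes crossing from 1 to 10 CPM, the 8 highest and lowest interactions, and list members with an interaction. The members and lists were chosen with earlier results of these data known. *Ccl5*, *Cd28*, *Npm1* and the cytokines without a call were added after their values were seen. Promoter sequences are from RefSeq. Some genes are not reported here. Alternatives were DESeq2 1.42.0, other scalings and filters, limma 3.58.1 on log2(FPKM + 1) or log2(FPKM + 0.1), a replicate block, a test against 1.5-fold and each replicate left out.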

Additional observations from a re-analysis of the deposited data

Results flagged for a closer look

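In 320 groups of 4 samples examined, 26 held a sample whose gap to the nearest other, relative to the range of its group, exceeded Dixon's critical value. Chance gives about 1 in 20 for independent, normally distributed values, which CPM of many genes from the same libraries are not. Where the other samples of a group held no reads, as for *Il3* and *Fzd9*, any read exceeds the critical value. Unstimulated PGE2 replicate 4 gave the most, 13. It was the highest of its group for *Irf4* (125.9 CPM), *Myc* (89.5), *Ccl3* (3.59), *Ccl4* (5.80), *Il3* (0.229), *Spry1* (5.63), *Nfkbid* (26.0), *Ifi44* (0.815), *Stat5a* (95.9), *Fzd9* (0.0255) and *Dctd* (3.89), and stood apart for *Dgka* (883.5) and *Map2k6* (7.36). Unstimulated PGE2 replicate 1 stood apart for *Prf1* (10.8 CPM), *Il2rb* (1592), *Rora* (42.8), *Adora2b* (0.316), *Lcp2* (145.0) and *Per1* (138.2), and replicate 3 for *Ifit1* (3.50), *Ifngr2* (51.5) and *Siah3* (9.09). Among stimulated PGE2 samples, replicate 1 stood apart for *Mycn* (1.41 CPM) and *Il6ra* (6.05), replicate 2 for *Gzmc* (36.7) and replicate 4 for *Klf4* (2.90).

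For 30 named genes the responses with and without PGE2 differed by the interaction test (adjusted p below 0.05). The log2 response was larger or less negative with PGE2 for *Tcam1* (2.36), *Dctd* (1.84), *D030028A08Rik* (1.64), *Car12* (1.57), *Srm* (1.53), *Ifrd2* (1.51), *Polr1b* (1.44), *Pprc1* (1.38), *Gnl3* (1.30), *Ifngr1* (1.25), *Dkc1* (1.08), *Nop58* (0.98), *Polr1a* (0.97), *Nat10* (0.93), *Rrp1b* (0.88), *Bid* (0.87), *Klf2* (0.83), *Btla* (0.74) and *Adcy6* (0.69). It was smaller or more negative for *Pdcd1* (-1.75), *Rgs2* (-1.67), *Epcam* (-1.40), *Gch1* (-1.29), *Ptger2* (-1.23), *Tnfaip3* (-1.12), *Tnfsf9* (-1.11), *Cnih2* (-1.11), *Batf* (-0.67), *Btg2* (-0.58) and *Per1* (-0.45). Of these 30 calls, 15 held in all 16 fits with 1 library left out.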

How the results depend on the processing

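Without the fold threshold 9309 genes were called with PGE2, 9440 without PGE2 and 113 by the interaction. limma on log2(FPKM + 1) called 1583, 1605 and 8, and without a filter 1604, 1612 and 6, while log2(FPKM + 0.1) gave 17 for the interaction. A test against a 1.5-fold difference called 0 interactions, where 1415 had an unadjusted p below 0.05 and DESeq2 called 51. Leaving out 1 replicate gave 2950 to 3631 DEGs with PGE2, 3188 to 3658 without, and 18 to 72 interactions. The interaction count moved by over 1.5 times without unstimulated untreated replicate 1 (23) or 2 (18), unstimulated PGE2 replicate 3 (20), stimulated untreated replicate 1 or 3 (22 each), or stimulated PGE2 replicate 2 (20) or 4 (72). The split of interactions changed from 23 higher and 12 lower to 15 and 12 with RLE factors, to 2 and 6 with limma, and to 14 and 14, 10 and 10 or 12 and 12 without stimulated PGE2 replicate 1, stimulated PGE2 replicate 2 or stimulated untreated replicate 4. Equal replicate numbers are not stated to mark a shared source, and deviations of the 4 same-numbered pairs with PGE2 correlated between 0.0683 and 0.413, against -0.37 to 0.26 for other pairs, with 6 of 8 samples closest to their own number. Over all 4 groups the 24 same-numbered pairs correlated between 0.0683 and 0.64, and the others between -0.59 and 0.44. A replicate block gave 3234 DEGs with PGE2, 3317 without and 60 interactions, and it moved the list members past the interaction test, a count added after seeing the data, from 21 to 71, ribosome biogenesis factors from 8 to 20, and cytokines, chemokines and immediate early factors from 0 to 4.

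Of 138 called named genes, 130 kept their call in each of the 13 or 14 alternatives that gave them a value, and those with 13 had none from limma. Besides *Ptger2* (log2 fold change 0.64 to 0.999 where it was lost), *Phlpp1*, *Rora*, *Il6ra* and *Ccr2* lost it with limma, *Hk2* and *Malt1* with upper-quartile factors and *Ifnar1* without stimulated PGE2 replicate 1. With 1 replicate left out the log2 fold changes of *Crem* (-0.12 to 0.026), *Batf* (-0.12 to 0.030) and *Per1* (-0.078 to 0.0077) stayed uncalled and turned positive only without stimulated PGE2 replicate 4. The limits are 4 replicates a group, unequal stimulated replicates, and low counts of cytokines before stimulation, which leave their fold changes imprecise.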

Other observations

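Small nucleolar RNAs, which guide chemical modification of ribosomal RNA, were examined after their values were seen. Of 55 tested 45 rose and 0 fell on stimulation with PGE2, with a median log2 fold change of 1.88, beside 12.7% higher and 9.44% lower over all genes. Their levels were low, with 38 below a mean of 1 CPM and a highest mean of 8.89 CPM, and libraries made by poly(A) selection hold few such RNAs. Some could pass the filter on low counts only through the stimulated samples, such as *Snord87*, with a mean of 0.0667 CPM without and 0.373 CPM with beads. The filter therefore favours rises among such low RNAs, and the share that rose is in part set by it. Among 10 host transcripts of small nucleolar RNAs above 10 CPM, *Snhg4* (2.62 ± 0.16, log2 fold change ± SE), *Snhg17* (2.60 ± 0.098) and *Snhg15* (2.38 ± 0.14) rose, and the others, such as *Gas5* (0.49) and *Snhg1* (0.66), stayed below 2-fold. The microRNA host transcripts *Mir17hg* (6.604 ± 1.86 to 88.9 ± 42.5 CPM) and *Mir155hg* (6.41 ± 1.28 to 85.7 ± 24.8 CPM) rose, the nuclear RNA *Neat1* fell (542 ± 34.5 to 265 ± 80.5 CPM), and *Malat1* had a log2 fold change of -0.093 (adjusted p = 0.454).

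All 8 immunoglobulin gene segments tested fell, beside 9.44% of all genes, *Ighm* from 640.0, 617, 569 and 493 CPM to 216, 221, 254 and 246 CPM. All 8 belong to the heavy chain locus, so they are not independent of each other. *Ighm* also fell without PGE2, with a log2 fold change of -1.62 beside -1.29 with it (interaction adjusted p = 0.408). The summed B cell list also went from 10.1 to 17.3 CPM without beads to 4.60 to 9.90 CPM with them, and its part in the fall of these segments was not tested. Of 919 processed pseudogenes 117 rose, the same 12.7% as over all genes, and 13 fell, or 1.41% beside 9.44%. How reads matching several places were counted is not given in the sources used here.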
